A study of Mus musculus with 9 samples.

Results

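The regions described here are stretches of open chromatin that lay at the ends of protein-coding genes and were held by every library of the series. Peaks of the 9 deposited lists were merged wherever they shared at least 1 bp, giving 117465 regions on mm10 chromosomes 1 to 19. Of these, 13908 had a peak in all 9 lists, and 7098 of the 13908 (51.0%) lay within 1 kb of either end of a protein-coding gene. These 7098 gene-end regions were chosen by the presence of a deposited peak in every list and by position, so their presence is a description and has no test. The other 6810 regions held by all 9 lists lay farther from gene ends and serve as the comparison.

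Open chromatin had been profiled by ATAC-seq, in which the transposase Tn5 inserts sequencing adapters into accessible DNA. The cells were long-term haematopoietic stem cells (LT-HSCs), which sustain blood formation, and multipotent progenitors (MPPs), their more proliferative descendants, sorted from lineage-depleted bone marrow of pooled C57BL/6 mice. There were 3 LT-HSC libraries of genotype RXRa/RXRb-KO, called KO 1, 2 and 4, and 2 of wild type, called WT 2 and 3. There were 2 MPP libraries of each genotype, called KO 1 and 2 and WT 1 and 2. RXRa and RXRb are nuclear receptors that bind DNA as partners of retinoic acid, vitamin D, thyroid and liver X receptors. The sources used here do not give the age of the mice, the way the genes were deleted or the cells in which they were deleted.

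A gene's transcription starts at its promoter, and promoters of genes that all cells use often lie in CpG islands, which are stretches rich in C, G and the dinucleotide CG. Such promoters tend to stay free of nucleosomes in every tissue and to carry sites for Sp/KLF, ETS, NRF1 and NF-Y factors. NF-Y is a trimer that binds the CCAAT box, usually a short distance upstream of the start, and holds neighbouring DNA open.

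Promoter sequences of 7 genes whose regions recur in the results are shown to make the CCAAT and GC boxes visible. They are RefSeq start windows on GRCm38.p6, from 250 bases before to 50 bases after the annotated start, written 5′ to 3′ on the gene's strand. Hmgb2 (chr8:57511593-57511892, plus strand) and Stt3a (chr9:36767573-36767872, minus strand) were among the strongest regions in every library. Ephb1 (chr9:102354644-102354943, minus strand) was among the weakest. Gucy1b1 (chr3:82074662-82074961, minus strand) ranked higher in LT-HSCs than in MPPs. In these 4 the capitals mark CCAAT or its reverse complement ATTGG.
Hmgb2: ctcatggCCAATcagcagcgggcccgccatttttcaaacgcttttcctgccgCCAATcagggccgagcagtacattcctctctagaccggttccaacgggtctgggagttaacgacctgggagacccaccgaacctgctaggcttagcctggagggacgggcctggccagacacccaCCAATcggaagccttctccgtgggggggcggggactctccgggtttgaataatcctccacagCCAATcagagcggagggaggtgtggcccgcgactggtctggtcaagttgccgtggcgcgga
Stt3a: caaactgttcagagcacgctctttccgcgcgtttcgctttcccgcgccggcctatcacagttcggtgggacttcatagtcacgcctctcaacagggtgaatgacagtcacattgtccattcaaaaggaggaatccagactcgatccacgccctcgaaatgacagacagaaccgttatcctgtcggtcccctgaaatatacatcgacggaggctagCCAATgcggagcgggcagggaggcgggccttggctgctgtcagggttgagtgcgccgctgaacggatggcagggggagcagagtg
Ephb1: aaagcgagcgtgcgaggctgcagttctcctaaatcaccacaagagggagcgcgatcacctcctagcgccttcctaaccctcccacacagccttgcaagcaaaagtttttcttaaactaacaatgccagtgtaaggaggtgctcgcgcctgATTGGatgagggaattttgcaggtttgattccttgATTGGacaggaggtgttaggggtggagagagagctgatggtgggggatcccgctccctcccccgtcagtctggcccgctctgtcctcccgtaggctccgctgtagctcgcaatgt
Gucy1b1: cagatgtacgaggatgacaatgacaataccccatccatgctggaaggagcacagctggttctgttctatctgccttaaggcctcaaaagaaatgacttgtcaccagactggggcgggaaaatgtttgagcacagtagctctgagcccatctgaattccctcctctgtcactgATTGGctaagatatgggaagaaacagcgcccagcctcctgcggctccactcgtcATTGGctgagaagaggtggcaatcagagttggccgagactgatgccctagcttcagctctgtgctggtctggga

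Kmt2a (chr9:44881240-44881539, minus strand) and Eif4h (chr5:134639360-134639659, minus strand) ranked lower in LT-HSCs. Their capitals mark the Sp/KLF letters GGGCGG or the reverse complement CCGCCC; neither window holds CCAAT. Klf9 (chr19:23140976-23141275, plus strand) had one of the smallest p-values between KO and WT, and its capitals mark CCAAT or ATTGG, which overlap at the second site.
Kmt2a: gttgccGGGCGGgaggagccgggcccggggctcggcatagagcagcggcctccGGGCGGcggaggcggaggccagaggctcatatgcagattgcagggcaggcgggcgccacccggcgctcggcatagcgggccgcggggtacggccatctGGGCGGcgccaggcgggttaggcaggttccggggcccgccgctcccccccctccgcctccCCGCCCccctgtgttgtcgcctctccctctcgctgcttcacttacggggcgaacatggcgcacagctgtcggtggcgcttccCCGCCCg
Eif4h: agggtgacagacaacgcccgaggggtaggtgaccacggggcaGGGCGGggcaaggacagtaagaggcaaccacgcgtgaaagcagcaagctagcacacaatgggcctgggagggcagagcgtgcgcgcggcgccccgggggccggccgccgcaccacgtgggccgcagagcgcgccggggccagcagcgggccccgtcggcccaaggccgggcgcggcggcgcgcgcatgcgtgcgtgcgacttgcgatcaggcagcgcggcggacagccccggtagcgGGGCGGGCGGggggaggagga
Klf9: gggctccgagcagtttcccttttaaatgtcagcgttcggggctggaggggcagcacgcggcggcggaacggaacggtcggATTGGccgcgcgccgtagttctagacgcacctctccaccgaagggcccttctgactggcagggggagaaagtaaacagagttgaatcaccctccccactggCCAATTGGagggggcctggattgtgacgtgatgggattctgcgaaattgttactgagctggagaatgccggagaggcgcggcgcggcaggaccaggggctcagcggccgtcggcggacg

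The lists held 22690 to 71586 peaks in LT-HSCs and 78189 to 86353 in MPPs. The −log10 q-value of a peak grows with the reads behind it, and the depth of each library is unknown here beyond a mean of about 25000000 paired-end reads given in the labels, so values were compared as ranks. The 13908 regions were ranked in each library by their highest −log10 q-value and given a within-set percentile, from 0 for the weakest to 100 for the strongest. All libraries thus rank the same regions, and gene-end regions can rise only where the others fall. LT-HSC KO 1 and KO 2 stood apart. Over the 7098 gene-end regions their percentiles correlated with each other at Spearman's rho 0.887, with LT-HSC KO 4 at 0.613 to 0.689, with LT-HSC WT at 0.597 to 0.653 and with MPP libraries at 0.505 to 0.555. The corresponding rho was 0.843 to 0.888 between LT-HSC KO 4 and LT-HSC WT, 0.798 to 0.890 between LT-HSC WT and MPP, and 0.963 to 0.980 among MPP libraries. These are descriptions across regions of shared libraries.

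By q-value, gene-end regions ranked above the other always-held regions in every library. Their median percentile within the 13908 was 53.2 to 66.2, against 33.1 to 47.0 for regions away from gene ends. Ranked by fold enrichment this did not hold in LT-HSC KO 4, where the medians were 48.8 at gene ends and 51.0 away from them. Being held by every list favours strong peaks, so a high place in the complete list follows in part from how the regions were chosen. They took up 33.3%, 17.9% and 10.7% of the peaks of LT-HSC KO 1, 2 and 4 and 15.2% and 32.7% of those of LT-HSC WT 2 and 3, against 9.66% and 8.77% in KO MPPs 1 and 2 and 8.83% and 9.15% in WT MPPs 1 and 2. Their median place in the complete list was at the 71.5th to 90.0th percentile in LT-HSC libraries and at the 93.2nd to 93.9th in MPP libraries. The share of merged regions that lay within 1 kb of a gene end was between 8.01% and 9.19% for regions held by 1 to 4 libraries, 25.7% for those held by 8 and 51.0% for those held by 9. Lists short of 1 library were mostly short of the same 2: of 2122 gene-end regions held by 8 libraries, LT-HSC KO 1 lacked 1394 and LT-HSC WT 3 lacked 660, and these were the shortest lists. The 72 gene-end regions in the last 100 bp below the 1 kb limit had a median mean percentile of 44.8, and the 68 always-held regions in the first 100 bp beyond it had 47.8.

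Of the 20661 protein-coding genes, 7995 (38.7%, 95% Wilson interval 38.0% to 39.4%) had such a region at an end. Of the regions, 1274 lay within reach of 2 genes and 36 of 3 or more. Genes of the basic machinery of the cell had one most often, and genes expressed in sensory, neural or epithelial tissue rarely had one. Presence chose the regions, so these shares carry no test, and the classes were drawn by gene-symbol patterns. Aminoacyl-tRNA synthetase genes, which charge tRNAs, had a region in 30 of 35 cases (85.7%). Cytosolic ribosomal protein genes followed with 62 of 74 (83.8%), nuclear pore genes with 16 of 20 (80%) and mitochondrial import genes with 19 of 24 (79.2%). Subunits of RNA polymerases, general transcription factors and Mediator (72 of 93), splicing factors (62 of 81), oxidative phosphorylation subunits (64 of 84), replication and cell cycle genes (89 of 117) and translation factors (42 of 56) lay between 75% and 77.4%.

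Representatives of gene classes were taken from the strongest pair of each class by median percentile, so a high rank follows from that choice. Rpl37, a subunit of the large ribosomal particle, averaged the 97.9 ± 0.90 percentile in LT-HSCs, against 99.8 ± 0.08 in MPPs (SD, n = 5 and 4), from a region it shares with Card6. Mrps14 of the mitochondrial ribosome averaged 95.3 ± 1.84 in LT-HSCs, against 99.0 ± 0.37 in MPPs. Tomm40, the pore of the outer mitochondrial membrane, averaged 97.5 ± 1.86 in LT-HSCs, against 99.4 ± 0.15 in MPPs. Hnrnpc, which binds nascent RNA, averaged 98.7 ± 1.63 in LT-HSCs and 99.6 ± 0.20 in MPPs. Kdm4b, a histone demethylase gene, averaged 99.0 ± 1.19 in LT-HSCs and 99.6 ± 0.31 in MPPs, and Rab8a, a small GTPase of vesicle transport, 99.0 ± 0.97 in LT-HSCs and 99.8 ± 0.12 in MPPs. None of these 6 passed the cell type test described below, and all of them had small spreads in MPPs. Percentiles end at 100, which limits differences and spreads at this height, so neither shows that their rank is stable.

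At the other end of the scale, 3 of 1104 olfactory receptor genes (0.272%) and 1 of 354 vomeronasal receptor genes (0.282%) had such a region. The vomeronasal gene, Vmn1r4, lies within 1 kb of a region nearest to Nt5c3. Collagens (1 of 42), keratins (2 of 53), protocadherins (4 of 67), cytochrome P450 enzymes (9 of 99) and chemokines and interleukins (7 of 75) stayed below 10%. Nuclear receptor genes stood at 16 of 42 (38.1%) and solute carriers at 130 of 362 (35.9%), close to the share of all genes. Zinc finger genes stood at 255 of 455 (56.0%). None of the 39 Hox genes had an always-held region, although 7 of the 50 merged regions at Hox ends were held by 8 libraries. Those nearest Hoxa3, Hoxa5, Hoxa9, Hoxa10, Hoxb4 and Hoxc6 were missing from LT-HSC KO 1 alone and that nearest Hoxa7 from LT-HSC KO 2 alone. The Hox count therefore rests on these libraries.

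**Figure D1:**
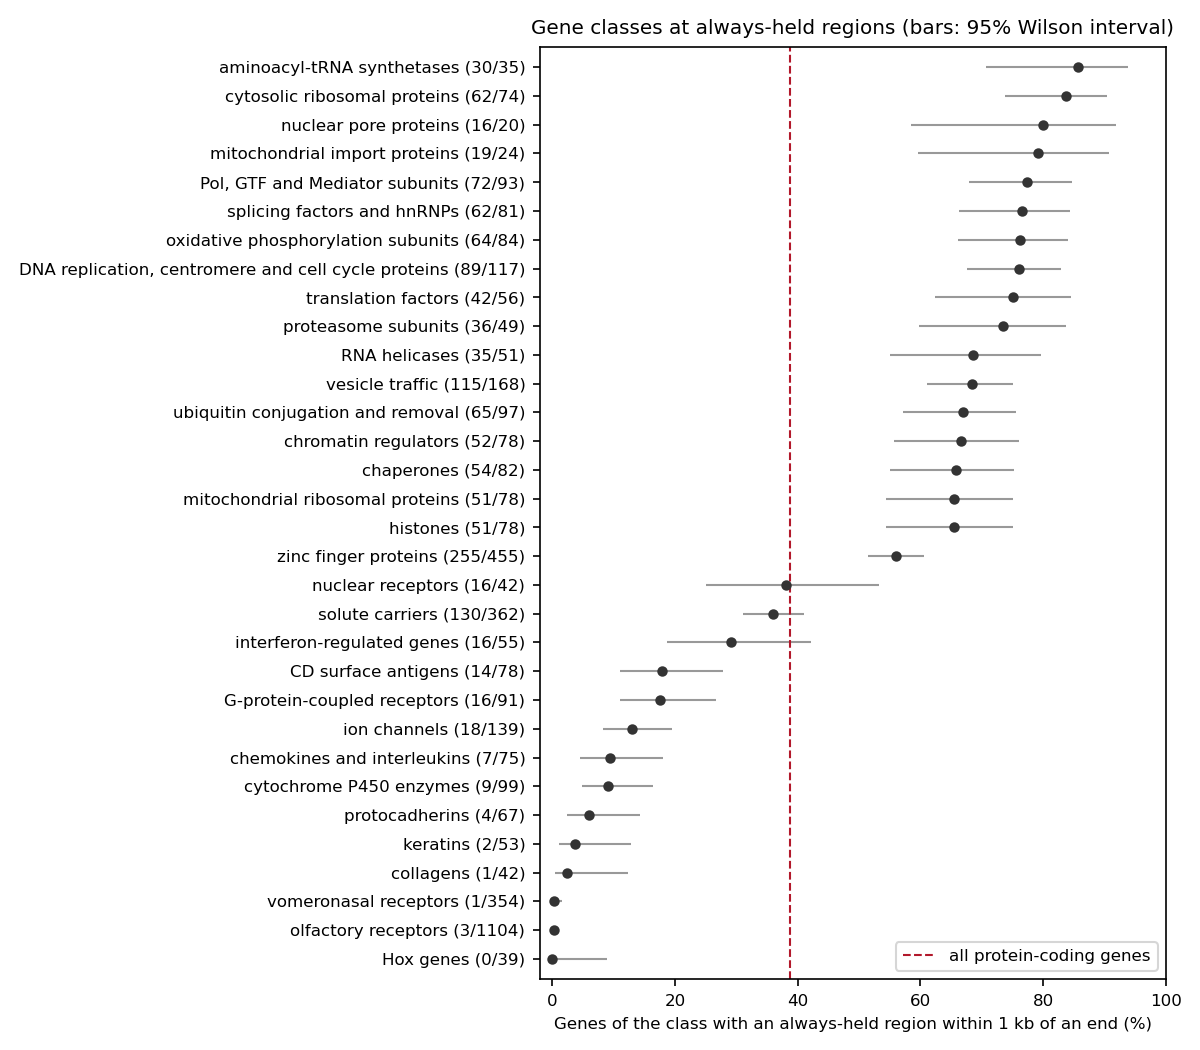
Share of the genes of each class with an always-held region within 1 kb of either end (horizontal axis, %), with 95% Wilson intervals and counts beside the class names; the dashed line is the share of all 20661 protein-coding genes, 38.7%. Translation, splicing and respiration classes sit at 65.4% to 85.7%, nuclear receptors and solute carriers near the line, olfactory and vomeronasal receptors below 1%, and Hox genes at 0 of 39.

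Long genes had a region more often than the shortest. Over quartiles of gene length, from the shortest to the longest, the shares were 22.6%, 41.8%, 48.3% and 42%. By chromosome the share ran between 31.9% on chromosome 14 and 46.9% on chromosome 8. Of the genes with a region, 7555 had 1, 431 had 2 and 9 had 3 or more.

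Most of these regions were promoters. An annotated start lay inside 5237 (73.8%), 303 had a start within 1 kb but outside, 305 were near only the other end of a gene, and for 1253 the reference table gave no start. The kinds differed in strength: the median of the mean percentile over 9 libraries was 62.9 for regions with a start inside, 43.5 for those with a start nearby, 38.0 for those at the other end and 53.9 for those with no start in the table. Regions holding starts of 2 or more genes on both strands, as at divergent gene pairs, had a median of 69.9 (604 regions). The summit, the position of the highest signal in a peak, lay just upstream of the start. In the 4228 regions with 1 start, its median was 49 to 56 bp upstream in each of the 9 libraries, and 78.7% to 80.8% of summits were upstream. Within a region the summit moved little: the range over 9 libraries had a median of 68 bp, and 70.1% of regions stayed within 100 bp.

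The start windows of gene-end regions differed in base composition from all start windows. The median GC content was 62.0% over 6478 windows in these regions and 57.0% over all 20084, with a median of 23 CG dinucleotides in windows of these regions and 14 in all windows. Letters were searched on both strands. The Sp/KLF letters GGGCGG occurred in 71.9% of the windows, against 47.0% of all windows, the ETS letters CCGGAAG in 24.1% against 11.9%, the NRF1 letters CGCATGC in 7.84% against 4.50%, and CCAAT in 44.6% against 38.1%. The TATA letters TATAAA occurred in 5.57% against 12.7%, the AGATAA letters of GATA factors in 4.66% against 9.57%, the RUNX letters TGTGGT in 11.3% against 14.8% and the nuclear receptor letters AGGTCA in 10.3% against 14.7%. Of the remaining searches, CACGTG occurred in 11% against 7.89%, TGACGTC in 6.93% against 3.92%, AAGATGG in 8.32% against 6.29% and TGANTCA in 3.74% against 7.06%. The ETS, NRF1 and GGGCGG letters are themselves rich in G and C. A letter match describes the sequence and is not a site.

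CCAAT matches went with rank. Ordered by mean percentile, from the weakest to the strongest quartile, 30.5%, 36.7%, 47.0% and 64.3% of windows held CCAAT, and each of the 9 libraries had this order. Regions were also grouped by matches in the start window, with the highest count taken where a region held several windows. Such regions have more chances at a high count, and the part of the number of windows was not tested. The 2770 start regions with 0 matches had a median mean percentile of 55.6, the 1321 with 1 match 63.2, the 704 with 2 matches 77.2 and the 442 with 3 or more 87.0. Ranked by fold enrichment in place of the q-value, these medians were 53.6, 60.3, 71.4 and 75.8. Start windows with more matches were not richer in GC, with medians of 62.7%, 61.3%, 61.7% and 59.7%, and the share with CCAAT climbed from the weakest to the strongest quartile within each quartile of GC content. In the highest GC quartile it was 19%, 27.0%, 41.3% and 51.6%. Matches were densest 70 to 41 bp upstream of the start, at 14.9 per 100 windows of gene-end regions against 6.68 per 100 other windows.

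**Figure D2:**
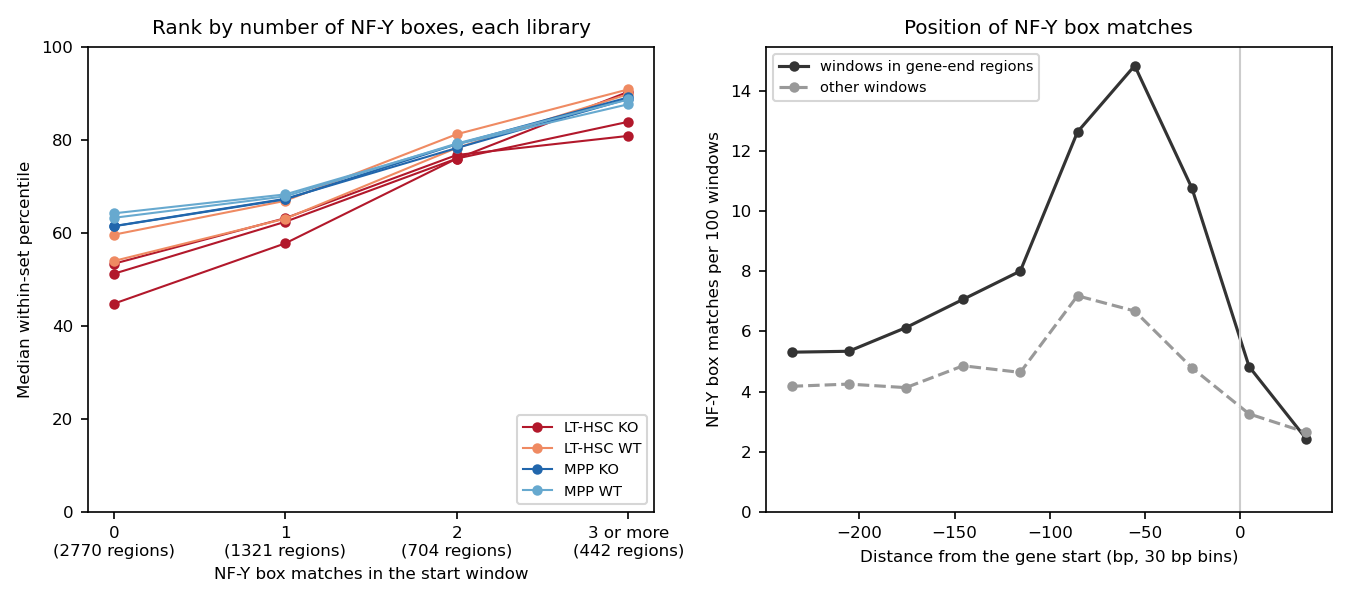
Left, median within-set percentile (0 to 100) of gene-end regions with a start inside, by the number of CCAAT boxes in the start window (the highest count where a region held several windows), with 1 line per library coloured by group. Right, CCAAT matches per 100 windows in bins of 30 bp by distance from the start, for windows in gene-end regions (solid) and other windows (dashed): every library climbs from 0 to 3 or more matches, and the solid line peaks at 14.9 in the bin 70 to 41 bp upstream.

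The regions strongest in every library, taken as the highest lowest-percentile over 9 libraries, included those of Qdpr, 4930579G24Rik with its neighbour Etfdh, Sel1l, Pja2, Vcpip1, Stt3a and Hmgb2. Hmgb2, a high-mobility-group DNA-bending protein, had −log10 q-values of 138, 149, 377, 239 and 225 in LT-HSC KO 1, 2, 4 and WT 2, 3, against 577, 584, 668 and 604 in MPP KO 1, 2 and WT 1, 2. Its percentile was at least 98.7 in all 9. Sel1l, an adaptor of the degradation of misfolded proteins in the endoplasmic reticulum, stayed between 98.8 and 99.9, and its window held 4 CCAAT matches, as did that of Hmgb2. Stt3a, a catalytic subunit of the enzyme that adds N-linked sugars, stayed between 98.7 and 99.9 with 1 match. Pja2 encodes a ubiquitin ligase and Vcpip1 a deubiquitinase.

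The weakest everywhere, by the lowest highest-percentile, were Ephb1, Tent5c, Spon1, Zbtb16, Krt1 and Foxa2. Ephb1, a receptor of ephrins, had percentiles of 1.91, 6.60, 2.61, 0.64 and 6.95 in LT-HSC KO 1, 2, 4 and WT 2, 3, against 0.35, 0.65, 1.31 and 0.93 in MPP KO 1, 2 and WT 1, 2. Foxa2, a transcription factor of endoderm, and Krt1, a keratin of the epidermis, ranged over the 9 libraries from 1.20 to 10.2 for Foxa2 and from 6.98 to 9.92 for Krt1. The Ephb1 window held 2 CCAAT matches, so a match does not go with a high rank in each region.

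The first comparison asked which gene-end regions ranked differently in LT-HSCs and MPPs. Gene-end regions as a whole ranked lower in LT-HSCs. Their median percentile was 58.8, 57.1 and 53.2 in LT-HSC KO 1, 2 and 4 and 59.1 and 63.7 in LT-HSC WT 2 and 3, against 64.2 and 64.2 in KO MPPs 1 and 2 and 65.6 and 66.2 in WT MPPs 1 and 2. Ranked by fold enrichment the medians were 48.8 to 63.5 in LT-HSCs and 57.4 to 59.4 in MPPs, so by that measure the cell types overlapped.

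By limma over all 13908 regions with genotype as covariate, Benjamini-Hochberg adjusted p under 0.05, 516 gene-end regions (7.27%) ranked higher in LT-HSCs and 1300 (18.3%) lower. Of all regions tested, 14.7% were called higher and 14.8% lower, 29.6% in either direction, so gene-end regions were called lower more often than the background and higher less often. The median difference was −4.48 percentile points over gene-end regions and −0.98 over all regions. Counting regions where no LT-HSC library overlapped an MPP library gave 601 higher and 1407 lower of the 7098 gene-end regions. Over all 13908 regions it gave 2084 higher (15%) and 2237 lower (16.1%), 31.1% in either direction. Because a peak in every list was required, regions with no peak in 1 or more LT-HSC lists were not among those ranked.

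The split depended on how ranks were set. By fold enrichment 895 were higher and 1063 lower, and ranked among gene-end regions alone 837 were higher and 885 lower. Of the 1816 calls, 913 were called again by fold enrichment and 205 changed sign. GC content moved with the calls. The median GC content of start windows was 57.7% for regions called higher in LT-HSCs and 66.5% for those called lower. In the lowest GC quartile 148 regions were higher and 111 lower, in the highest 30 were higher and 442 lower. With percentiles adjusted in each library for GC content, in a fit over regions with a start inside, 621 were higher and 444 lower, against 304 higher and 884 lower in the same fit without adjustment; this alternative was chosen after seeing the data. In the highest GC quartile the median percentile was 58.2, 51.4 and 42.9 in LT-HSC KO 1, 2 and 4 and 63.7 and 68.2 in LT-HSC WT 2 and 3, against 73.4 and 71.4 in KO MPPs 1 and 2 and 74.1 and 77.0 in WT MPPs 1 and 2. Without MPP KO 1 the counts were 231 higher and 541 lower, without MPP KO 2 they were 232 and 550, and without both LT-HSC KO 1 and KO 2, 990 and 2210.

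**Figure D3:**
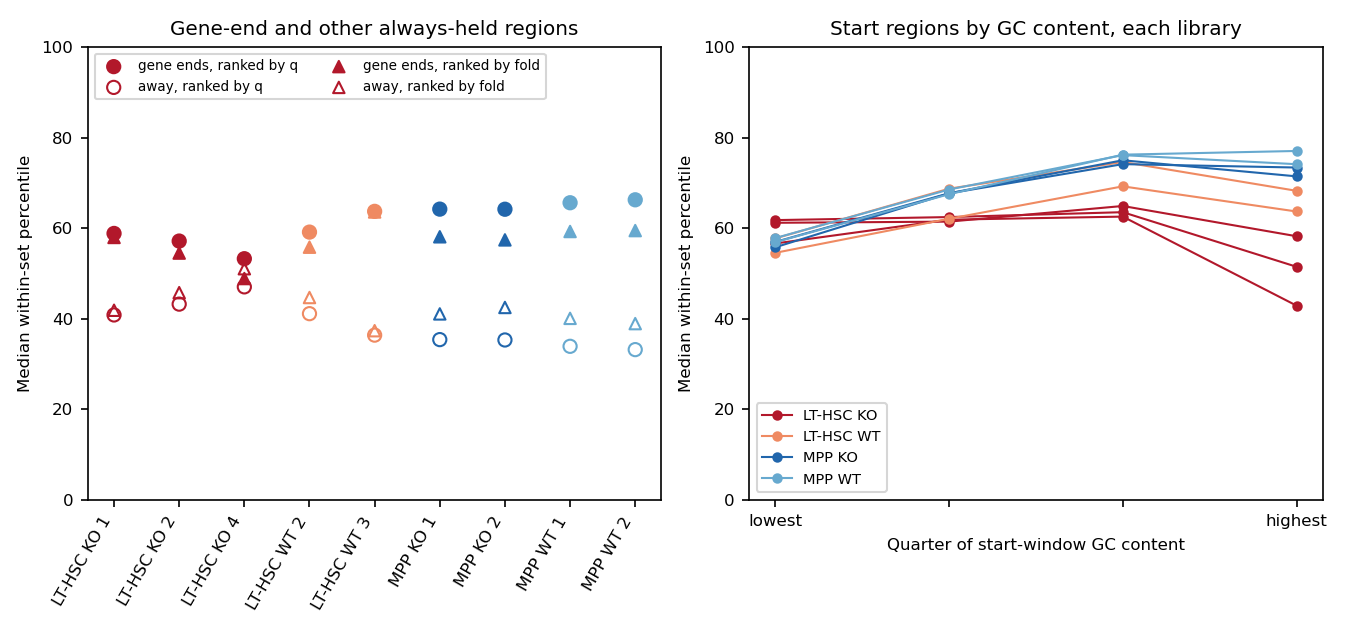
Left, median within-set percentile of gene-end regions (filled) and of always-held regions away from gene ends (open) in each library, ranked by q-value (circles) or by fold enrichment (triangles). Right, median percentile of start regions over quartiles of GC content, with 1 line per library: at the highest GC content LT-HSC libraries lie at 42.9 to 68.2 and MPP libraries at 71.4 to 77.0.

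CCAAT and GC boxes were distributed unequally over the calls. CCAAT occurred in 58.1% of the windows of regions called higher in LT-HSCs and in 30.7% of those called lower, and GGGCGG in 59.6% of those called higher and 81.7% of those called lower. Of start regions with 3 or more CCAAT matches, 9.95% were called higher and 7.69% lower, and of those with 0 matches 4.73% were called higher and 24.2% lower. Base composition and letters were read from the same windows, and their separate parts in the calls were not tested.

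The 8 named regions higher in LT-HSCs are those with the largest differences, and 3 of them held an annotated start. The region near Clec1a, a C-type lectin receptor (mm10 chromosome 6, 129425784 to 129426237, 447 bp from the gene end), had percentiles of 86.4, 80.9, 75.8, 75.8 and 50.1 in LT-HSC KO 1, 2, 4 and WT 2, 3, against 7.70, 3.80, 0.56 and 0.72 in MPP KO 1, 2 and WT 1, 2. No LT-HSC library overlapped an MPP library. Its difference was 69.4 ± 7.17 points (SE; limma adjusted p = 0.000158). The deposited −log10 q-values were 36.7, 53.6, 149, 79.6 and 26.6 in LT-HSC KO 1, 2, 4 and WT 2, 3, against 29.4, 24.8, 7.26 and 7.03 in MPP KO 1, 2 and WT 1, 2, so the 2 cell types overlapped slightly before ranking.

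Tnfrsf11b, which encodes osteoprotegerin, a decoy receptor in bone, averaged 92.3 ± 6.13 in LT-HSCs, against 28.2 ± 7.20 in MPPs (SD, n = 5 and 4). Gucy1b1, a subunit of soluble guanylate cyclase, averaged 77.6 ± 15.8 in LT-HSCs and 13.2 ± 1.39 in MPPs. Cadm2, a cell adhesion molecule, averaged 82.1 ± 17.2 in LT-HSCs and 15.9 ± 3.32 in MPPs. For Cadm2, LT-HSC KO 1 and KO 2 were highest at 99.6 and 99.3. Plscr2, a phospholipid scramblase family member, Nupr1, a stress-induced nuclear protein, Capn8, a calpain protease, and Tmem45a, a membrane protein, differed by 66.4 to 70.0 points. In these 8 regions every LT-HSC library lay above every MPP library in percentile, as the naming rule required. Before ranking, deposited fold enrichment overlapped between cell types in each of them except Nupr1, and −log10 q-values except at Nupr1 and Tmem45a. At Tnfrsf11b fold enrichment was 15.8 to 23.8 in LT-HSCs, against 19.4 to 22.1 in MPPs. At Gucy1b1 it was 10.1 to 23.0 in LT-HSCs, against 15.7 to 17.9 in MPPs. Ranked by fold enrichment, the LT-HSC minus MPP differences were 32.8 points at Tnfrsf11b and 47.7 at Gucy1b1.

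**Figure D4:**
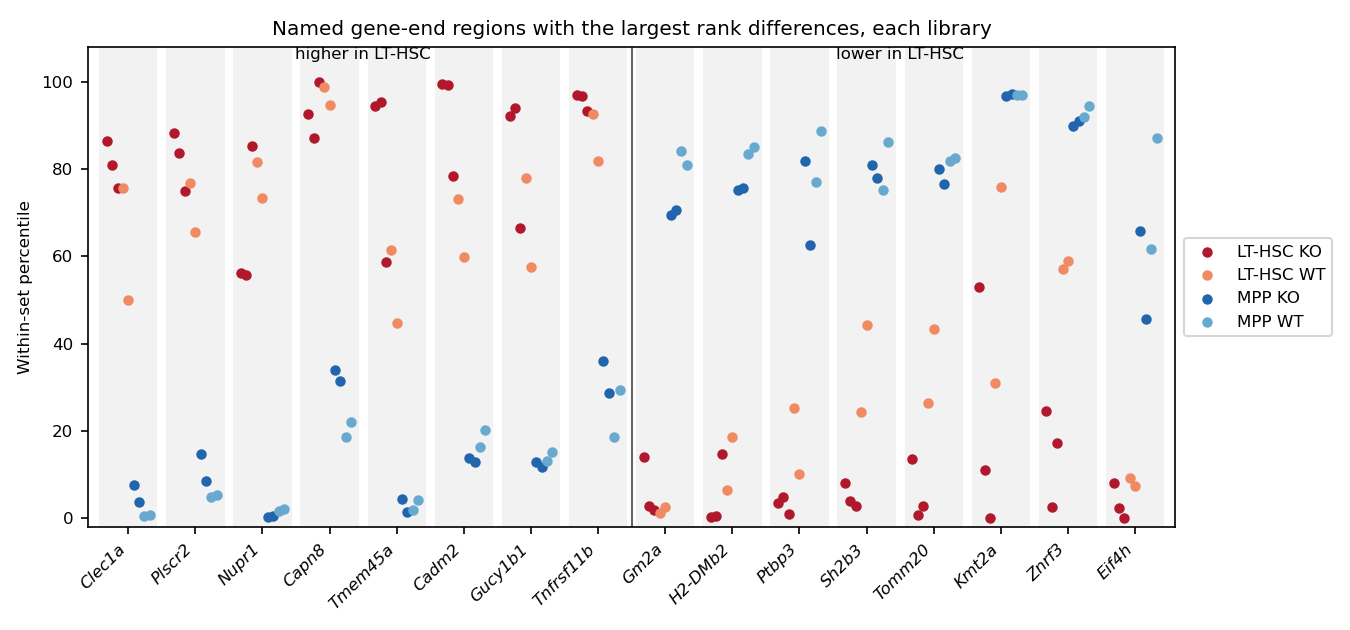
Within-set percentile (vertical axis, 0 to 100) of the 8 gene-end regions ranked higher and the 8 ranked lower in LT-HSCs by the largest differences, with 1 point per library coloured by group. The groups do not overlap in any of the 16, and Clec1a lies at 50.1 to 86.4 in LT-HSCs and at 0.56 to 7.70 in MPPs.

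The largest differences in the other direction were at Gm2a, H2-DMb2, Ptbp3, Sh2b3, Tomm20, Kmt2a, Znrf3 and Eif4h. Gm2a, the lysosomal activator of ganglioside breakdown, had percentiles of 14.1, 2.80, 1.94, 1.24 and 2.59 in LT-HSC KO 1, 2, 4 and WT 2, 3, against 69.5, 70.8, 84.2 and 81.1 in MPP KO 1, 2 and WT 1, 2. Its region lay 346 bp from the gene end, away from the start. The difference was −71.5 ± 6.16 points (SE; limma adjusted p = 9.74e-05). H2-DMb2, which loads peptides onto MHC class II, averaged 8.16 ± 8.32 in LT-HSCs, against 79.9 ± 5.18 in MPPs (SD, n = 5 and 4). Ptbp3, an RNA-binding regulator of splicing, averaged 8.97 ± 9.70 in LT-HSCs and 77.5 ± 11.1 in MPPs.

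Kmt2a, the histone methyltransferase MLL that is needed for stem cell function, had percentiles of 53.0, 11.1, 0.04, 30.9 and 75.9 in LT-HSC KO 1, 2, 4 and WT 2, 3, against 96.8, 97.2, 96.9 and 97.1 in MPP KO 1, 2 and WT 1, 2. The LT-HSC libraries were widely spread and the MPP libraries close together. The difference was −61.1 ± 12.6 points (SE; limma adjusted p = 0.00551). By fold enrichment it was −32.9 and no longer passed the threshold (adjusted p = 0.0727), and that of Sh2b3, an adaptor that restrains cytokine signalling, was −6.48. Eif4h, a translation initiation factor, averaged 5.43 ± 3.98 in LT-HSCs, against 65.1 ± 17.0 in MPPs (SD, n = 5 and 4). Tomm20, a mitochondrial import receptor sharing its region with Rbm34, and Znrf3, a ubiquitin ligase that acts on Wnt receptors, differed by −61.1 and −57.3 points.

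Most housekeeping classes had more regions called lower than higher in LT-HSCs, as gene-end regions did in general (18.3% lower and 7.27% higher). Of 68 regions at splicing factor genes, 21 were lower (30.9%) and 2 higher, and of 54 at chromatin regulators 16 were lower (29.6%) and 2 higher. Of 118 at vesicle traffic genes 31 were lower (26.3%) and 6 higher, and of 65 at cytosolic ribosomal protein genes 15 were lower (23.1%) and 2 higher, nearer the share of all gene-end regions. Mitochondrial import genes had 2 of 20 in each direction, and zinc finger genes had 28 lower and 32 higher of 258. These splits also depended on the ranking. By fold enrichment splicing factor genes had 12 lower and 10 higher, chromatin regulators 6 lower and 8 higher, vesicle traffic genes 20 lower and 14 higher and ribosomal protein genes 10 lower and 6 higher. With adjustment for GC content splicing factor genes had 7 lower and 5 higher of 58 regions with a start inside, chromatin regulators 7 lower and 4 higher of 42, vesicle traffic genes 17 lower and 8 higher of 95 and ribosomal protein genes 7 lower and 0 higher of 47. Among 24 regions of MYC target genes, a list chosen with earlier results known, 7 were lower and 0 higher. They included Odc1, the first enzyme of polyamine synthesis, which averaged 38.9 ± 13.6 in LT-HSCs, against 80.3 ± 10.8 in MPPs (SD, n = 5 and 4; difference −40.0 ± 7.66 SE, limma adjusted p = 0.00389). Cdk4, a kinase of cell cycle entry, differed by −23.2 ± 4.63 points (limma adjusted p = 0.00465) and Nme1, a nucleoside diphosphate kinase, by −19.7 ± 3.33 (limma adjusted p = 0.00198). The median difference over the 24 was −9.98 points, against −4.48 over all gene-end regions, and by fold enrichment −2.77 against −0.79. By fold enrichment 3 of the 24 were lower and 4 higher, and of the 7 calls those of Odc1 and Nme1 held (limma adjusted p = 0.0495 and 0.0123). With adjustment for GC content Odc1 (−21.1), Cdk4 (−14.4) and Nme1 (−17.7) passed. The region shared by Hspd1 and Hspe1 (−13.3) and that of Gnl3 (−25.0) did not. The called regions of Eif4a1 and Slc7a5 had no adjusted value.

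The share of genes with an always-held region varied between lists of blood lineage genes, beside 38.7% of all genes and with no test. Of the genes listed, 7 of 10 for multipotent progenitors (70%), 7 of 10 for erythroid and megakaryocyte priming (70%), 7 of 20 for HSC identity (35%), 4 of 14 for lymphoid (28.6%) and 3 of 14 for myeloid priming (21.4%) had one. Pf4, the platelet chemokine of megakaryocytes, had percentiles of 78.9, 80.8, 77.0, 58.5 and 42.5 in LT-HSC KO 1, 2, 4 and WT 2, 3, against 18.9, 19.5, 9.12 and 10.9 in MPP KO 1, 2 and WT 1, 2. All LT-HSC libraries were above all MPP libraries, with a difference of 51.0 ± 6.79 points (SE; limma adjusted p = 0.00056). Gp1ba, a platelet receptor of von Willebrand factor, differed by 49.1 ± 13.0 (limma adjusted p = 0.0173), with the lowest LT-HSC value, 42.9, below the highest MPP value, 44.6. Epor, the erythropoietin receptor, differed by 35.4 ± 8.31 (limma adjusted p = 0.01). Its value in LT-HSC WT 2, 33.1, was below that in MPP KO 2, 34.0. Zfpm1, the FOG1 cofactor of GATA1, differed by −17.9 ± 3.52 (limma adjusted p = 0.00439). Klf1 at −20.4, Tfrc at −7.13 and Nfe2 at −5.35 did not pass (limma adjusted p = 0.0802, 0.369 and 0.29). The median difference over the 7 regions of this list was −5.35 points, against −4.48 over all gene-end regions. By fold enrichment it was 5.29 against −0.79. By fold enrichment the call of Pf4 held, while Gp1ba at 29.3, Epor at 5.29 and Zfpm1 at 5.26 did not pass, the sign of Zfpm1 turning. Klf1 passed by fold enrichment, at −30.6. With adjustment for GC content Pf4 and Gp1ba passed and Zfpm1, at −3.47, did not. The call of Epor was also lost without MPP KO 1, at 32.2, and that of Gp1ba without LT-HSC WT 2, at 42.7.

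Cebpa, a driver of myeloid fate, ran the other way, with 40.9, 22.2, 28.3, 35.0 and 55.3 in LT-HSC KO 1, 2, 4 and WT 2, 3, against 82.5, 83.1, 83.7 and 81.7 in MPP KO 1, 2 and WT 1, 2. The groups did not overlap, and the difference was −45.6 ± 7.28 points (SE; limma adjusted p = 0.00144). Irf8, a factor of monocytes and dendritic cells, differed by −21.9 ± 5.59, Runx1, required for blood formation, by −27.1 ± 5.53, and Flt3, the receptor that marks MPPs, by −17.2 ± 4.53 (limma adjusted p = 0.0148, 0.00523 and 0.0171). By fold enrichment Irf8 passed at −33.7, while Cebpa at −21.3, Runx1 at −7.66 and Flt3 at 5.72 did not pass, the sign of Flt3 turning. With adjustment for GC content Cebpa and Runx1 passed, while Irf8 (−11.2) and Flt3 (−10.7) did not. The Flt3 call was lost without MPP KO 1 (−15.2) or MPP KO 2 (−15.5), and the Irf8 call without MPP KO 2 (−20.2). None of the 5 lymphoid regions passed the test. Lyl1, Meis1, Tal1, Kit, Cd34, Mllt3 and Spi1 did not pass the test. Lyl1 averaged 74.2 ± 14.2 in LT-HSCs, against 55.8 ± 4.72 in MPPs (SD, n = 5 and 4; limma adjusted p = 0.0808). It passed without LT-HSC KO 1 at a difference of 22.1 points. Cd34 leaned the other way, at −23.1 points (limma adjusted p = 0.0614), and passed with adjustment for GC content at −27.0. With LT-HSC KO 4 as the only LT-HSC KO library, Cd34 stood at −34.8 points, Mllt3 at −34.9 and Lyl1 at 28.9.

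Lists of markers of other cells were short, and the shares below stand beside the 38.7% of all genes. B cell markers had 0 of 6 genes with a region, mature myeloid markers 0 of 7 and mature erythroid markers 0 of 5, and stromal and endothelial markers 1 of 6 (Pecam1). Of T cell markers 2 of 6 (33.3%) had one. At Cd3d, a subunit of the T cell receptor complex, the percentile was 10.9 and 19.7 in LT-HSC KO 1 and KO 2, 84.4 in LT-HSC KO 4, 84.0 and 78.6 in LT-HSC WT 2 and 3, and 84.9 to 90.8 in MPPs, and Cd28 was at 35.5 to 62.0. Of 12 neuronal and hepatic control genes 2 had one. Snap25, a neuronal protein of vesicle fusion, was at 91.8 and 91.9 in LT-HSC KO 1 and KO 2 and at 23.6 in LT-HSC KO 4, against 25.6 and 17.0 in LT-HSC WT 2 and 3, and at 15.6 to 21.5 in MPPs. Apoa1, a liver apolipoprotein, was at 8.10 and 10.9 in LT-HSC KO 1 and KO 2 and at 33.6 to 48.7 in the other libraries. Their part in the results was not tested.

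The second comparison asked how loss of RXRa and RXRb changed the rank of gene-end regions. No gene-end region passed limma's test between KO and WT after adjustment (smallest adjusted p = 0.502), as for 0% of all 13908 regions. At unadjusted p under 0.05, 125 of the 7098 gene-end regions were higher and 537 lower in KO, against 667 higher (4.80%) and 675 lower (4.85%) of all 13908 regions. With limma's library weights 41 were called higher and 103 lower, against 322 higher and 148 lower over all 13908 regions. The median difference was −2.93 percentile points over gene-end regions and −0.48 over all; ranked among gene-end regions alone, 368 were higher and 313 lower at unadjusted p under 0.05, so the direction of the excess did not hold under that centring.

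No gene-end region differed between cell types in its KO minus WT difference by limma (0% of all regions). At unadjusted limma p under 0.05, 187 of the 7098 were more positive and 405 more negative in LT-HSCs, against 1217 of all 13908 regions (8.75%) in either direction. The count of 0 at the adjusted threshold depended on the libraries. Without LT-HSC KO 4 it was 2003, with 854 more positive and 1149 more negative, against 1886 and 2083 over all 13908 regions. With library weights it was 2411, with 951 and 1460, against 2291 and 2578 over all. Without LT-HSC KO 1 and KO 2 the LT-HSC KO group holds only KO 4, which leaves no spread within that group. The interaction count of that setting is listed with the other processing settings below and is not interpreted.

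Since nothing passed, the regions with the smallest p are given as values. Klf9, a Krüppel-like transcription factor, had 47.8, 32.3 and 46.0 in LT-HSC KO 1, 2 and 4 against 80.2 and 82.0 in LT-HSC WT 2 and 3, and 33.0 and 30.5 in MPP KO 1 and 2 against 65.0 and 61.6 in MPP WT 1 and 2. All 5 KO libraries lay below all 4 WT libraries, with a difference of −35.7 ± 6.40 points (SE; limma adjusted p = 0.502). Its region spans mm10 chromosome 19, 23140596 to 23141353, with the start inside.

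Vav1, a guanine nucleotide exchange factor of blood cells, had 67.2, 72.6 and 77.5 in LT-HSC KO 1, 2 and 4 against 20.1 and 42.6 in LT-HSC WT 2 and 3, and 74.8 and 74.0 in MPP KO 1 and 2 against 36.6 and 36.3 in MPP WT 1 and 2. The KO libraries lay above the WT libraries in both cell types (39.7 ± 6.73 points SE; limma adjusted p = 0.502). Dot1l, the histone H3 methyltransferase, averaged 26.6 in KO and 64.9 in WT, with 4.14, 8.35 and 2.72 in LT-HSC KO against 66.3 and 44.2 in LT-HSC WT, and 64.0 and 53.9 in MPP KO against 71.2 and 77.8 in MPP WT. By fold enrichment these differences were smaller, at 12.5 points for Vav1, −13.2 for Dot1l and −21.5 for Klf9. The other regions named by this rule were Gcc1, Ctla2a and Psat1, with higher values in KO by 9.42 to 16 points, and Fbxo42 and Ppp2ca, with lower values by 27.4 and 19.8 points. By fold enrichment Ctla2a was at 3.82 points, and the other four kept a value within 1.5 times.

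**Figure D5:**
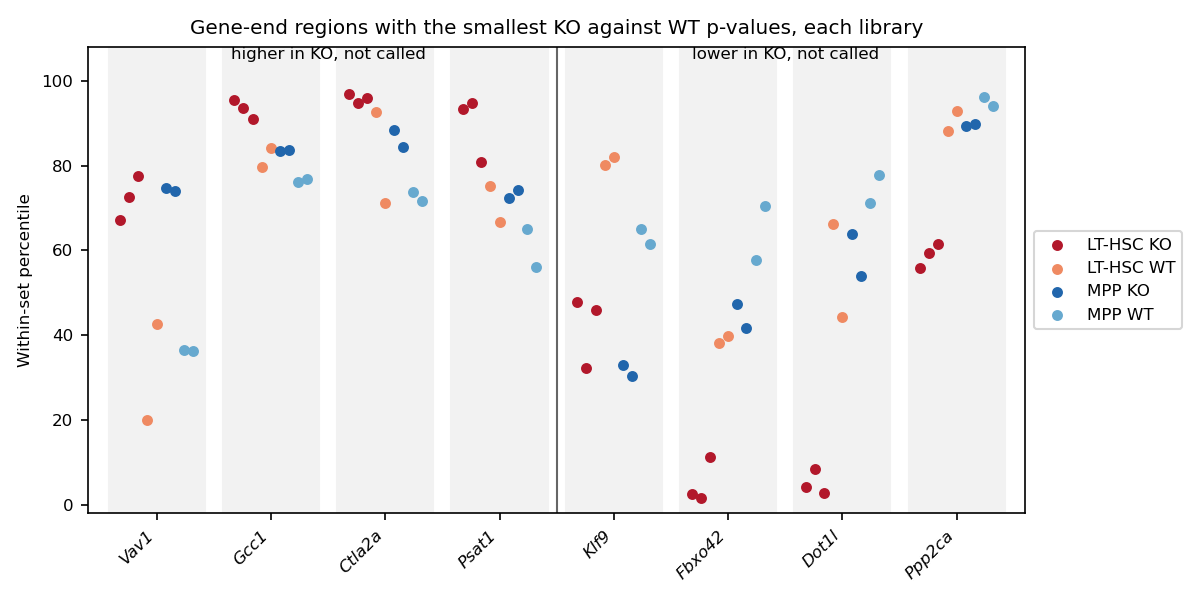
Within-set percentile (vertical axis, 0 to 100) of the 4 gene-end regions with the smallest p in each direction between KO and WT, with 1 point per library coloured by group; none passed the adjusted test. For Klf9 the KO points lie at 30.5 to 47.8 and the WT points at 61.6 to 82.0.

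Of the targeted genes, Rxra had no always-held region at its ends. The Rxrb region (chromosome 17, 34031478 to 34032428), at an end it shares with Slc39a7, had percentiles of 25.1, 0.72 and 5.32 in LT-HSC KO 1, 2 and 4, against 30.8 and 41.1 in LT-HSC WT 2 and 3. In MPPs it had 62.3 and 55.0 in KO 1 and 2, against 57.9 and 63.1 in WT 1 and 2. The LT-HSC minus MPP difference was −37.5 ± 7.69 points (SE; limma adjusted p = 0.00538), but −2.23 by fold enrichment, which did not pass. Between KO and WT the difference was −14.8 ± 7.69 (limma adjusted p = 0.505). Which part of the gene was removed is not stated in the sources used here, so this region does not check the genotype. Of 26 RXR partner and target genes 13 had a region (50%, beside 38.7% of all genes), 18 regions in all. Of those, 5 were called lower and 0 higher in LT-HSCs, beside 18.3% lower and 7.27% higher of all gene-end regions. The 5 lay at Rxrb, Nr1h3, which encodes liver X receptor alpha, Ppara and Ppard of the fatty acid-sensing receptors, and Ncor1, a co-repressor. The called Nr1h3 and Ncor1 regions lay nearest Acp2 and Pigl. Other regions of these genes were not called. Those of Nr1h3 differed by 1.21 and −11.8 points (limma adjusted p = 0.951 and 0.246). That of Ncor1 differed by −14.8 points (limma adjusted p = 0.119). The median difference over the 18 was −12.1 points, against −4.48 over all gene-end regions, and by fold enrichment −3.41 against −0.79. By fold enrichment the calls of Nr1h3, Ppara and Ppard held and those of Rxrb and Ncor1 were lost, with 6 of the 18 lower and 1 higher. With adjustment for GC content it was the other way round: Rxrb (−21.5) and Ncor1 (−20.0) passed, while Nr1h3 (−19.3), Ppard (−19.8) and Ppara (−3.08) did not. With 1 library left out at a time, Rxrb and Ncor1 kept their call and the other three lost it in some settings, Nr1h3 without LT-HSC KO 2 or WT 2 or any MPP library, Ppara without LT-HSC KO 2 or WT 3, either MPP KO library or MPP WT 2, and Ppard without LT-HSC KO 1 or WT 2, either MPP KO library or MPP WT 1.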

How the data were processed

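ATAC-seq peaks of 9 libraries of sorted LT-HSC and MPP cells from RXRa/RXRb-KO and WT mice were analysed from 1 deposited peak list per library. Per the submitters' processing notes, the build was mm10 and the tools named were cutadapt 1.7, FastQC, Bowtie2 4.1.2, MACS2 2.1.1, HOMER 4.10.3, SAMtools 0.1.18, edgeR 3.20.9 and DiffBind 2.6.6, with no roles stated. The authors deposited for each peak the −log10 of its q-value and p-value, its fold enrichment as a ratio to background, a display score that was not used here, and positions with a summit offset. The smallest deposited −log10 q-value was 1.30. The labels put the mean depth at about 25000000 paired-end reads; read filters, Tn5 shifting and the depth of each library are not stated in the sources used here, so precision from depth is unknown. Wilson intervals cover counting error only.

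Peaks overlapping by 1 bp or more were merged, and gene ends, symbols and start windows came from RefSeq tables of GRCm38.p6, which give gene ends but no exons or UTRs. The table of start windows covered 16456 of 20661 genes, and chromosome 18 windows were not used here. Within-set percentiles were tested with limma 3.58.1 (trend, moderated, R 4.3.3) in 1 model over all 9 libraries with cell type and genotype, or their interaction, and Benjamini-Hochberg adjustment over 13908 regions at 0.05; the fit was tested on simulated data. Other steps used Python 3.11.15, pandas 2.3.3, numpy 2.4.6, scipy 1.17.1 and matplotlib 3.10.9. Nothing in the labels says that libraries of a group came from separate pools of mice; the spread behind each p-value is that between libraries and may be technical.

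Named regions were the 8 with the highest lowest-percentile, the 6 with the lowest highest-percentile, per contrast and direction the 8 called regions with the largest difference and no overlap between groups (with none called, the 4 with the smallest p), the strongest pair per gene class, genes of the curated lists, and Rxra and Rxrb. One region that this rule names is not reported here. A region is called by the gene whose end is nearest its midpoint. The regions, gene classes and lists were chosen with earlier results of these data known, and some class patterns were narrowed after their members were seen. Alternatives were a stricter q-value, a 100 bp overlap, distances of 500 bp and 2 kb, ranking by fold enrichment, normal scores, ranking among gene-end regions only, leaving out the weakest 25% of regions, library weights, a replicate block, each library left out, and, chosen after seeing the data, LT-HSC KO 1 and KO 2 left out together and adjustment for GC content.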

Additional observations from a re-analysis of the deposited data

Results flagged for a closer look

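Of the 84 groups of values tested, 5 held a library far from the others of its group; chance gives about 1 in 20. Spon1 stood at the 8.95 percentile in MPP KO 1 and at 3.44 to 4.37 in the other MPP libraries. Foxa2 stood at 9.04 in MPP KO 1 and at 2.63 to 3.34 in the others. Krt1 stood at 9.92 in MPP WT 1, with the others at 6.98 to 7.33. Each of these lies within the weakest regions. Gm2a stood at 14.1 in LT-HSC KO 1 and at 1.24 to 2.80 in the other LT-HSC libraries, all below the 69.5 of the lowest MPP library. Ctla2a stood at 92.7 in LT-HSC WT 2 and at 71.2 to 73.9 in the other WT libraries of both cell types.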

How the results depend on the processing

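The 7098 gene-end regions were 6695 at 500 bp, 7642 at 2 kb, 4810 at a −log10 q-value of 10 or more, 8964 without LT-HSC KO 1 and KO 2, and 7099 to 8492 without each library. Against 516 regions higher and 1300 lower in LT-HSCs, the stricter q-value gave 299 and 765, library weights 793 and 2072, and LT-HSC KO 1 and KO 2 left out 990 and 2210; fold enrichment gave 895 higher, ranking among gene-end regions 837 higher, and each library left out 231 to 687 higher and 541 to 1554 lower. The replicate block gave 346 and 852. Deviations of same-numbered libraries correlated at −0.099 to 0.043. With 2 libraries per MPP group their deviations mirror each other, so the MPP genotype pairs share a single value. These correlations cannot tell whether equal numbers mark shared mice or a batch. In a fit over start regions, adjustment for GC content gave 621 higher and 444 lower, against 304 and 884 without it. Between KO and WT, library weights gave 41 higher and 103 lower against 0 in the other settings run, the block included. Over all 13908 regions the weights gave 322 higher and 148 lower. The interaction count of 0 was 2411 with library weights, 215 without LT-HSC KO 1 and KO 2, and 0 to 2003 without each library, its highest without LT-HSC KO 4. The interaction count without LT-HSC KO 1 and KO 2 rests on KO 4 as the only LT-HSC KO library and is not interpreted. Median percentiles by fold enrichment moved to 48.8 in LT-HSC KO 4, 58.1 and 57.4 in MPP KO 1 and 2, and 59.2 and 59.4 in MPP WT 1 and 2. Of the differences of named or listed regions, fold enrichment reversed the sign at Flt3 (5.72), Zfpm1 (5.26) and Hspd1 and Hspe1, which share a region (2.87). Single calls between cell types were lost in 62 of 592 recomputed values and gained in 4, and 7 genotype values passed with library weights. The block ended the calls of Cdk4, Epor, Flt3, Gp1ba, Irf8, Nr1h3, Ppara and Runx1. The causes were not tested. Depth is unknown, and 27.4% of the regions had a −log10 q-value under 10 in LT-HSC KO 1, against 0.127% to 0.338% in MPP libraries, so ranks of weak regions in the short lists are the least certain.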
